A study of Homo sapiens with 10 samples.

Results

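The HOX genes encode homeodomain transcription factors that give cells their position along the body axis. They lie in 4 clusters, HOXA on chromosome 7, HOXB on chromosome 17, HOXC on chromosome 12 and HOXD on chromosome 2, in which the order of the genes follows the order of their expression from anterior (low paralogue numbers) to posterior (high numbers). Trithorax proteins maintain their activity, Polycomb proteins maintain their silence, retinoic acid induces the anterior members, and in the intestine the posterior members mark the hindgut. CpG-rich start sites are common in these clusters, and in cancer cells some of them carry DNA methylation.

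The 38 HOX genes on a list fixed by symbol were followed here, out of 58884 genes in the count tables (10 HOXA, 10 HOXB, 9 HOXC and 9 HOXD). Polyadenylated RNA was sequenced from 6 libraries of HCT116, a line of human colorectal carcinoma cells, and 4 libraries of DNMT1 KO cells, derived from HCT116 by targeting DNMT1, which encodes the enzyme that copies CpG methylation onto newly replicated DNA. The study describes the DNMT1 KO line as a hypomorph that retains a truncated DNMT1 protein, and it was used as a single derivative line, so that the deletion and anything else particular to the line cannot be told apart. Neither group received a treatment, the replicates are described as separate cultures, and the labels place the libraries in 4 batches, of which batches 1 and 2 hold both groups, batch 3 holds DNMT1 KO replicate 4 and batch 4 holds HCT116 replicates 7 to 9.

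The 6 HCT116 libraries held 35418732 to 85991812 counts each, the 4 DNMT1 KO libraries 26700853 to 55732013. DNMT1 itself was lower in every DNMT1 KO library (14.1 to 22.3 CPM, counts scaled to one library size) than in any HCT116 library (89.8 to 263 CPM), with a log2 fold change of -2.97 (SE 0.33, adjusted p = 1.74e-05 by edgeR). All fold changes are DNMT1 KO over HCT116, and a gene was called when its log2 fold change exceeded 1 in either direction with an adjusted p under 0.05. The median log2 fold change over all 19279 genes tested was -0.07, and it moved to 0.14 when libraries were scaled by their totals alone. That scaling also moved the calls over all genes from 1431 higher and 1251 lower to 1878 higher and 956 lower. In bulk RNA, a lower share of cells that express a gene and less of its RNA per cell cannot be told apart.

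Of the 38 HOX genes, 28 had enough counts to be tested, 3 were called higher in DNMT1 KO cells (HOXA4, HOXA13 and HOXC10) and 11 were called lower (HOXB2 to HOXB9, HOXC11, HOXC13 and HOXD8). Over all genes tested, 7.42% were called higher and 6.49% lower. HOXC11 entered the test through HCT116 alone, so that its call carries no weight in this count. The 14 calls were not spread evenly over the clusters: all 8 tested HOXB genes from HOXB2 to HOXB9 were called lower, whereas of 10 tested HOXA genes 2 were called higher and 0 lower. The median log2 fold change was -0.57 over the 28 tested HOX genes, -0.26 for HOXA, -2.01 for HOXB and -0.44 for HOXC. The library values of the 2 groups did not overlap for 14 HOX genes, 4 higher and 10 lower in DNMT1 KO cells, against 8.4% and 6.79% of all genes tested. HOXC11 is among the 10 lower and carries no weight there either.

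**Figure D1:**
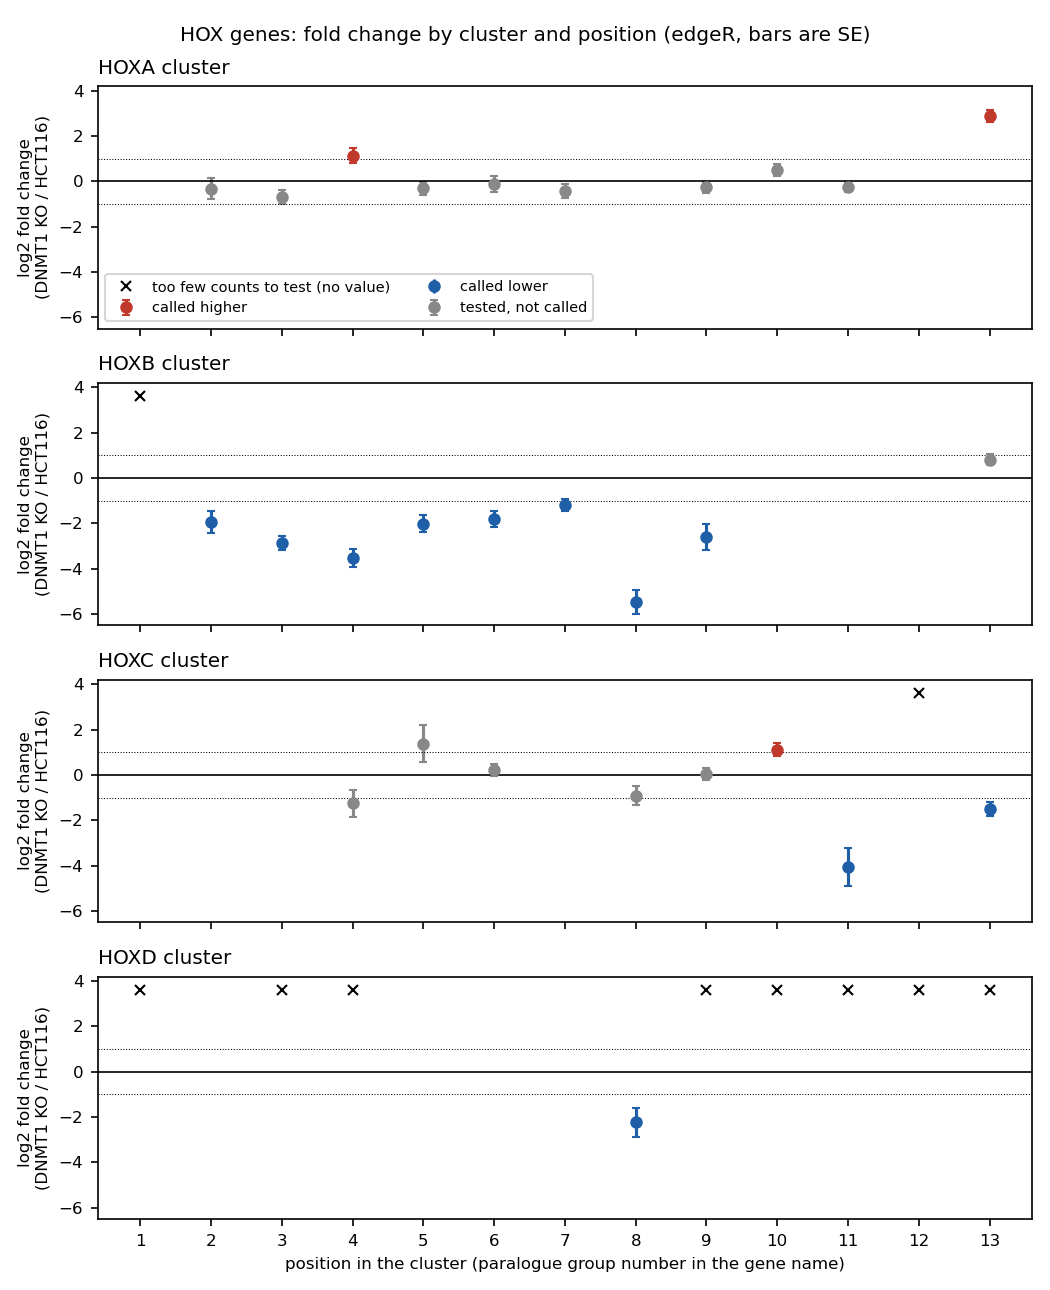
Log2 fold change of each tested HOX gene (DNMT1 KO over HCT116, edgeR, bars are SE) against its paralogue number, with 1 panel per cluster. Crosses mark genes with too few counts to test and carry no value, and dotted lines mark a log2 fold change of 1 and -1. HOXB2 to HOXB9 lie below -1 as a block while HOXB13 lies at 0.81, and HOXA13 stands at 2.88 beside HOXA11 at -0.26.

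The make-up of HOX RNA changed with these calls. The summed level of the 38 genes was 438.1 to 560.9 CPM in HCT116 and 313.7 to 408.2 CPM in DNMT1 KO. HOXB genes made up 53.1 to 62.2% of that sum in HCT116 libraries and 21.6 to 29.1% in DNMT1 KO libraries. HOXA genes made up 27.45 to 38.03% in HCT116 and 59.8 to 69.5% in DNMT1 KO. HOXA13 alone went from between 2.11 and 3.08% to between 14.5 and 32.9%. In none of these shares did the groups overlap. A share also rises when other genes fall. The summed level of the 8 HOXA genes other than HOXA4 and HOXA13 overlapped, at 117.2 to 167 CPM in HCT116 and 116.4 to 140.6 CPM in DNMT1 KO. When mean CPM was divided by exon length, the HCT116 order was led by HOXB7 (42.5 CPM per kb), HOXB9 (32.6), HOXA9 (27.3) and HOXB8 (22.2). The DNMT1 KO order was led by HOXA9 (22.8 CPM per kb), HOXB7 (18.7), HOXA13 (18.3) and HOXB13 (10.3). These orders depended on the length used. Per kb of exon not shared with other genes, HOXA9 (37.5) stood above HOXB9 (32.6) in HCT116. In DNMT1 KO, HOXA10 (10.34) then lay beside HOXB13 (10.31). Neighbours in these orders were not tested against each other, and on the CPM scale the library values of HOXB7 and HOXB9 overlapped within HCT116.

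The HOXB genes were examined first, since they held most calls. HOXB8, which can hold myeloid progenitors in an immature state, showed the largest fall among HOX genes. It was measured at 22.2, 45.4 and 72 CPM (lowest, median and highest) in HCT116 and at 0.834, 1.78, 1.11 and 0.348 CPM in DNMT1 KO replicates 1 to 4. Every DNMT1 KO library was thus more than an order of magnitude below every HCT116 library, and the log2 fold change was -5.45 (SE 0.53, adjusted p = 4.41e-06 by edgeR). HOXB4, a gene known for expanding blood stem cells, was at 9.45, 24.6 and 35.2 CPM in HCT116. Its DNMT1 KO values were 2.4, 1.79, 2.02 and 1.42 CPM, a log2 fold change of -3.54 (SE 0.40, adjusted p = 1.74e-05 by edgeR), with wide separation of the groups. HOXB3, which acts in the hindbrain with its paralogues, was at 9.45, 9.59 and 16.6 CPM in HCT116 and at 1.79, 1.46, 1.7 and 1.04 CPM in DNMT1 KO. Its 4 DNMT1 KO values were tightly grouped below the HCT116 range, and the log2 fold change was -2.85 (SE 0.31, adjusted p = 1.22e-05 by edgeR).

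HOXB9, which patterns the thoracic skeleton, was at 34.4, 71.3 and 159 CPM in HCT116 and at 7.75, 10.1, 32.9 and 4.24 CPM in DNMT1 KO. DNMT1 KO replicate 3 lay just under the lowest HCT116 library and the other 3 lay far below it. The log2 fold change was -2.61 (SE 0.58, adjusted p = 0.00562 by edgeR), and it was -3.50 without DNMT1 KO replicate 3. HOXB5, which acts in lung and enteric nerve development, was at 8.23, 10 and 27.1 CPM in HCT116 and at 3.56, 4.09, 2.14 and 2.75 CPM in DNMT1 KO. The log2 fold change of HOXB5 was -2.01 (SE 0.39, adjusted p = 0.00199 by edgeR), and the highest HCT116 library stood alone. HOXB6, expressed in early blood and limb, was at 5.64, 10.3 and 16.3 CPM in HCT116 and at 3.64, 3.07, 1.9 and 3.79 CPM in DNMT1 KO, a log2 fold change of -1.80 (SE 0.35, adjusted p = 0.0019 by edgeR). Both genes fell without overlap between the groups.

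HOXB2 and HOXB7 fell less surely. HOXB2, a hindbrain segment gene, was low throughout, at 0.519, 0.89 and 1.35 CPM in HCT116 and at 0.278, 0.107, 0.302 and 0.278 CPM in DNMT1 KO, which are 340 and 44 counts in all. HOXB2 was over the low-count filter in 6 of 6 HCT116 and 3 of 4 DNMT1 KO libraries, so that HCT116 carried it into the test. The fall of HOXB2 was -1.94 on the log2 scale (SE 0.48, adjusted p = 0.0107 by edgeR), with all DNMT1 KO values below all HCT116 values. HOXB7, reported as overexpressed in several carcinomas, was at 35.8, 67.6 and 91.3 CPM in HCT116 and at 32.2, 30.8, 22.7 and 28.8 CPM in DNMT1 KO. The log2 fold change of HOXB7 was -1.18 (SE 0.28, adjusted p = 0.00832 by edgeR), and the groups came close without touching. Within batch 2 it was -0.58 (adjusted p = 0.397 by edgeR), where the HCT116 libraries were the 2 lowest of their group (44.5 and 35.8 CPM). In batches 1 and 2 with a batch term, HOXB2 and HOXB7 were no longer called (adjusted p = 0.138 and 0.0729).

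HOXB13, the most posterior member and a marker of prostate and distal colon, went the other way. It was at 14.5, 21.1 and 26.5 CPM in HCT116 and at 47.5, 42, 26.7 and 26.8 CPM in DNMT1 KO. The 2 lower DNMT1 KO libraries lay just above the highest HCT116 library. The log2 fold change of 0.81 (SE 0.25, adjusted p = 0.0382 by edgeR) passed the p threshold and not the fold threshold, and it was 1.02 when libraries were scaled by totals alone. On the genome HOXB13 lies apart from the rest of its cluster: the HOXB2 to HOXB9 genes span 92.7 kb (chr17:48540894-48633572, hg38, minus strand, ending with HOXB7), and HOXB13 (chr17:48724763-48729178) begins 91.2 kb beyond them. HOXB1, at the anterior end, was listed at 0 in every library. A 0 does not settle that a gene is silent in these tables, since RING1 and RXRB, which most cells use, were also too low to test.

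**Figure D2:**
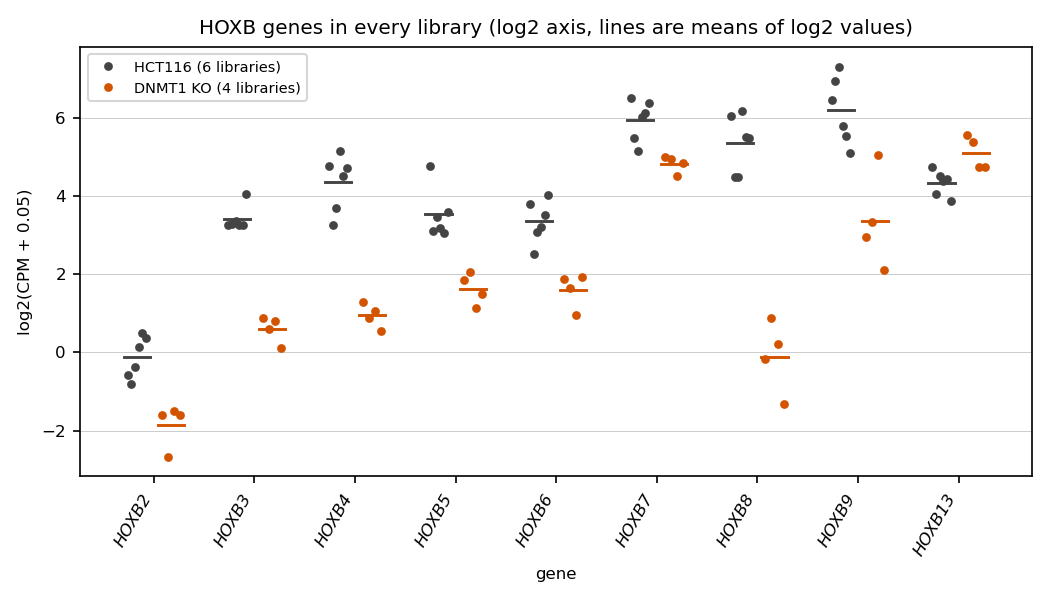
HOXB genes in every library, as log2(CPM + 0.05), with 1 point per library (6 HCT116, 4 DNMT1 KO) and a line at the mean of the log2 values. From HOXB2 to HOXB9 every DNMT1 KO point lies below every HCT116 point, and for HOXB13 every DNMT1 KO point lies above.

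The HOXB genes did not vary as one unit within HCT116. HOXB4, HOXB7 and HOXB8 were lowest in the 2 HCT116 libraries of batch 2, where HOXB8 was at 22.2 and 22.5 CPM against 44.8 to 72 CPM in the other 4. HOXB9 was highest in the same 2 libraries, at 123 and 159 CPM, and lowest in the 3 libraries of batch 4, at 34.4 to 55.2 CPM. Because of these differences the fall was read within batches. In batch 1, with 1 library per group, the log2 ratio was -6.30 for HOXB8, -3.50 for HOXB4, -3.49 for HOXB9 and -2.41 for HOXB3. In batch 2, with 2 libraries per group, the ratio of means was -3.96 for HOXB8, -2.55 for HOXB4, -2.71 for HOXB9 and -2.66 for HOXB3. All 8 genes from HOXB2 to HOXB9 were lower in DNMT1 KO in both batches, and in batch 2 alone 4 of them (HOXB3, HOXB4, HOXB8 and HOXB9) were still called.

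**Figure D3:**
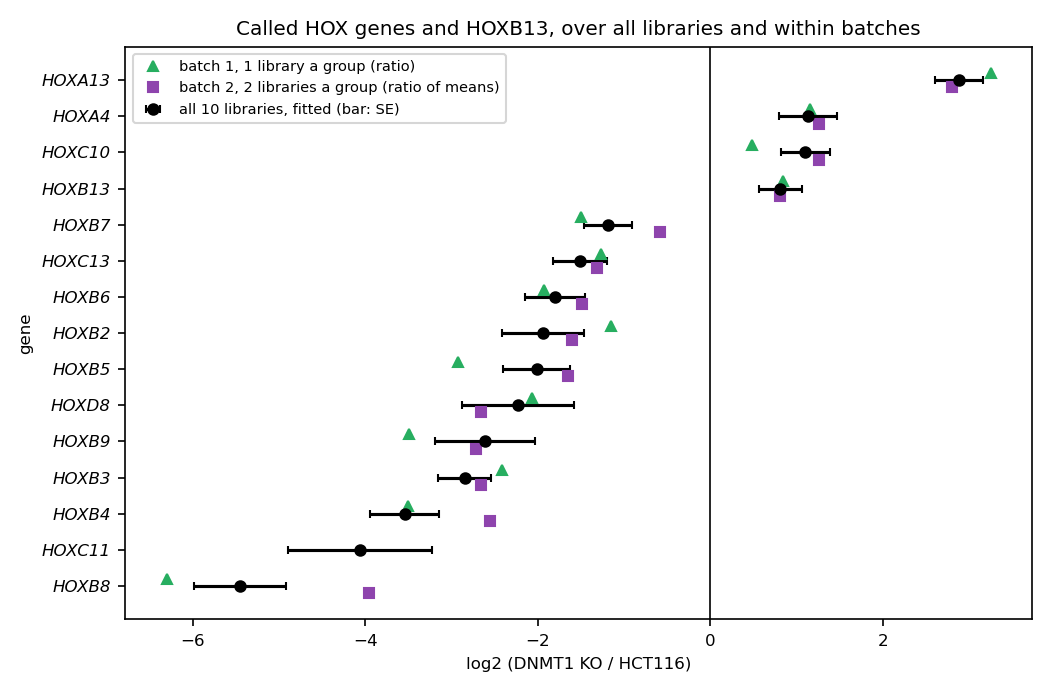
Log2 ratio of DNMT1 KO over HCT116 for the 14 called HOX genes and HOXB13, as fitted over all 10 libraries (circles, bars are SE), as the ratio of the 2 libraries of batch 1 (triangles) and as the ratio of means of batch 2 (squares). Where a batch value is drawn it has the sign of the fitted value, and HOXC11 had too few counts for one. HOXB8 runs from -6.30 in batch 1 to -3.96 in batch 2, and HOXB7 from -1.50 to -0.59.

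In the HOXA cluster HOXA4 and HOXA13 were called, both higher. HOXA13 shapes the digits, the hindgut and the genitourinary tract. It was measured at 9.54, 12.6 and 15.3 CPM (lowest, median and highest) in HCT116 and at 134, 106, 45.5 and 85.9 CPM in DNMT1 KO replicates 1 to 4. The lowest DNMT1 KO library, replicate 3, was still far above the highest HCT116 library. Means were 12.6 ± 2.05 CPM (SD, n = 6) and 92.9 ± 37.4 CPM (SD, n = 4), and the log2 fold change was 2.88 (SE 0.28, adjusted p = 3.82e-06 by edgeR), with 3.25 in batch 1 and 2.80 in batch 2. HOXA13 remained called under each of the 21 alternative settings, with a log2 fold change of 2.67 to 3.13.

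HOXA4, an anterior gene active in the hindbrain and trunk, rose from a low level. It was at 0.451, 0.86 and 0.945 CPM in HCT116 and at 2, 1.48, 1.59 and 1.95 CPM in DNMT1 KO. The groups did not overlap and the log2 fold change was 1.13 (SE 0.33, adjusted p = 0.0308 by edgeR). The call was lost in 10 of the 21 alternative settings, among them the fit of batches 1 and 2 that included the batch (1.23, adjusted p = 0.0939) and the fit without HCT116 replicate 2 (1.04, adjusted p = 0.0522). Of its exonic bases 47.3% are shared with exons of other genes, and reads of shared bases may be missing from its counts.

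The other 8 tested HOXA genes had overlapping groups, and 0 of the 10 were called lower by edgeR (1 at an unadjusted p under 0.05, 0 by DESeq2). HOXA9, the leukaemia-associated member and in HCT116 the most abundant of the cluster, was at 51.3, 86.6 and 102 CPM in HCT116. Its DNMT1 KO libraries, at 68.7, 51.9, 84.2 and 72.2 CPM, lay inside that range, and the log2 fold change was -0.26 (SE 0.24, adjusted p = 0.536 by edgeR). HOXA10, which acts in the uterus and limb, was at 14.1, 18.9 and 31.6 CPM in HCT116 and at 35.2, 29.2, 19 and 30 CPM in DNMT1 KO. That is a log2 fold change of 0.48 (SE 0.26, adjusted p = 0.265 by edgeR). HOXA11, a partner of HOXA10 in the uterus and the nearest tested HOX neighbour of HOXA13, was at 15.5, 17.1 and 22.4 CPM and at 15.5, 14.8, 12.5 and 16.9 CPM. Its log2 fold change was -0.26 (SE 0.22, adjusted p = 0.483 by edgeR), and its interval ends 8.28 kb from where the HOXA13 interval begins.

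Among the anterior HOXA genes, HOXA3, needed for the thymus and parathyroid, was at 6.52, 10.2 and 13.2 CPM in HCT116 and at 5.91, 4.46, 8.9 and 4.48 CPM in DNMT1 KO. HOXA5, needed for the lung, was at 6.1, 8.2 and 11.9 CPM and at 6.64, 5.46, 9.98 and 5.25 CPM. HOXA6 was at 0.835, 1.88 and 2.79 CPM and at 1.49, 2.17, 2.06 and 1.25 CPM. In all 3 genes the groups overlapped, with log2 fold changes of -0.72 (SE 0.31), -0.32 (SE 0.28) and -0.12 (SE 0.37). HOXA7 was at 4.9, 7.58 and 9.93 CPM in HCT116 and at 5.05, 7.8, 3.4 and 5.39 CPM in DNMT1 KO, and 62.5% of its exonic bases are shared with other genes. HOXA2, a hindbrain and second-arch gene, stayed under 1 CPM in every library. The adjusted p of these 5 genes ran from 0.143 to 0.872, and that for HOXA6 belongs to a value whose sign turned with library totals alone (0.10).

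**Figure D4:**
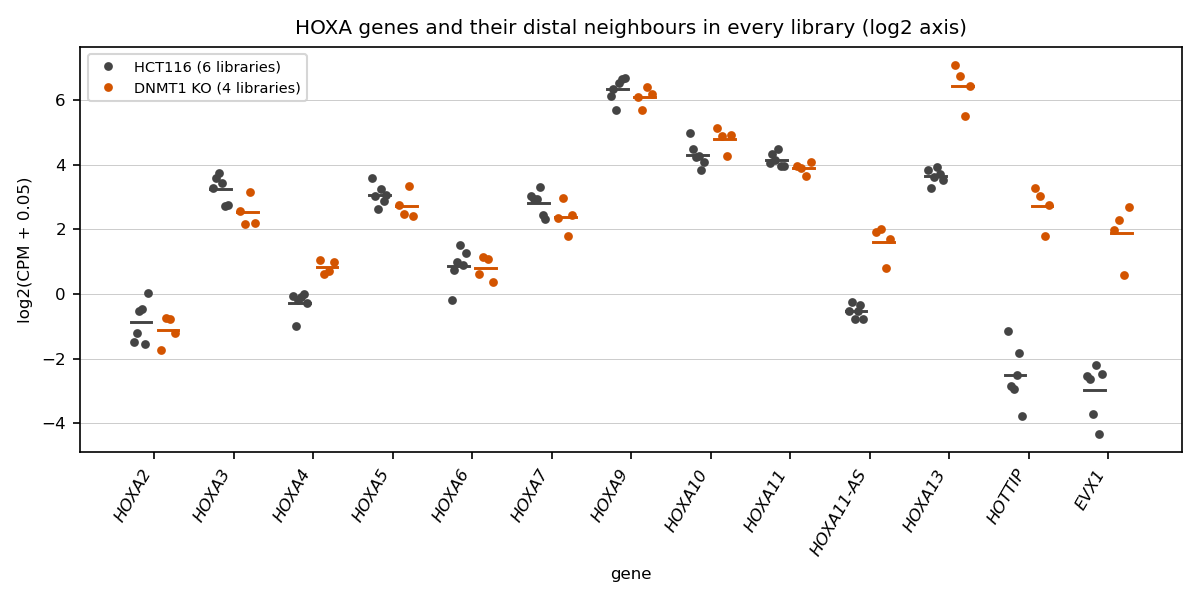
HOXA genes, the long non-coding RNAs HOXA11-AS and HOTTIP and the flanking gene EVX1 in every library, as log2(CPM + 0.05), with 1 point per library and a line at the mean of the log2 values. DNMT1 KO points lie above all HCT116 points for HOXA4, HOXA11-AS, HOXA13, HOTTIP and EVX1, and the groups overlap for the other 8 genes shown.

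The posterior end of the HOXA cluster was then followed beyond its HOX genes. HOTTIP, a long non-coding RNA whose RefSeq start lies beside that of HOXA13 on the other strand, has been linked to trithorax recruitment. Its HCT116 values were 0.0232, 0.108 and 0.402 CPM. It was at 9.62, 8.19, 3.41 and 6.74 CPM in DNMT1 KO, 46 against 1251 counts in all. The log2 fold change was 5.51 (SE 0.58, adjusted p = 9.42e-06 by edgeR), and the pooled CPM ratio was 48.8, with a 95% counting interval of 36.3 to 67.0. HOTTIP and HOXA13 share 86 exonic bases, 1.69% of HOXA13. EVX1, an even-skipped type homeobox gene past HOTTIP, was at 0, 0.118 and 0.167 CPM in HCT116 and at 3.86, 4.78, 1.44 and 6.36 CPM in DNMT1 KO. For EVX1 the log2 fold change was 5.40 (SE 0.64, adjusted p = 3.02e-05 by edgeR), on 33 and 696 counts. Both were over the low-count filter in all 4 DNMT1 KO libraries, against 2 of 6 HCT116 libraries for HOTTIP and 0 of 6 for EVX1. They were thus tested only through the group in which they were high, where a gene has to differ, and their p-values add nothing to the counts given.

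HOXA11-AS, on the strand opposite to HOXA11, was at 0.534, 0.645 and 0.789 CPM in HCT116 and at 3.71, 3.98, 1.68 and 3.23 CPM in DNMT1 KO. That was a log2 fold change of 2.28 (SE 0.34, adjusted p = 0.000208 by edgeR), beside a HOXA11 whose groups overlapped. Of the exonic bases of HOXA11-AS 59.3% are shared with other genes, HOXA11 among them. In the counted annotation HOXA11-AS covers 31.1% of the exonic bases of HOXA11, and reads of shared bases may be missing from both genes. DNMT1 KO replicate 3 had the lowest value of its group for HOXA13, HOTTIP, HOXA11-AS and EVX1 alike. It also had the highest value of its group for HOXB9 and HOXD8. What sets this library apart was not tested.

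The sequences before the start sites of the genes named above are shown because CpG sites are what DNMT1 acts on. A further reason is that the RefSeq starts of HOXA13 and HOTTIP, and of HOXA11 and HOXA11-AS, face away from each other across one stretch. In the counted annotation, which holds further transcripts, HOTTIP begins inside HOXA13 and HOXA11-AS inside HOXA11. They come from RefSeq (GRCh38.p14), reach up to 250 bases before the RefSeq start and stop short of any base annotated as transcribed from that gene in the count tables. Each is written 5′ to 3′ along its gene in lower case, with CpG sites, the sites of DNA methylation, in capitals. Methylation itself was not among the data used here.
HOXA13 (chr7:27200107-27200341, minus strand): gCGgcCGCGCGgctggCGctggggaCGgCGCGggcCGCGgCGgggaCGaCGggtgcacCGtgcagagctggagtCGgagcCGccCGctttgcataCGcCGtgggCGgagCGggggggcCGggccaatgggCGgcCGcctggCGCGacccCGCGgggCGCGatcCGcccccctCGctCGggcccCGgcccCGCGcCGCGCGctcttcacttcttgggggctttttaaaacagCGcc
HOXA11 (chr7:27185233-27185482, minus strand): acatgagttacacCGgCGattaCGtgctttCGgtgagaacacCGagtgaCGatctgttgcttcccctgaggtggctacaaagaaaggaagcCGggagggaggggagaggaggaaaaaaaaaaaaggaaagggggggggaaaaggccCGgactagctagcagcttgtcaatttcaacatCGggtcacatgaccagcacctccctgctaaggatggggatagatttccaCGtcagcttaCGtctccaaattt
HOXA4 (chr7:27130800-27131007, minus strand): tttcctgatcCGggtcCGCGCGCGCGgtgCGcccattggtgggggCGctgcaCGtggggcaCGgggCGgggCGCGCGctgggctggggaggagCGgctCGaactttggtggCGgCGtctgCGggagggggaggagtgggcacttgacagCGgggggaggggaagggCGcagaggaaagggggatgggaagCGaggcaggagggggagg
EVX1 (chr7:27242552-27242699, plus strand): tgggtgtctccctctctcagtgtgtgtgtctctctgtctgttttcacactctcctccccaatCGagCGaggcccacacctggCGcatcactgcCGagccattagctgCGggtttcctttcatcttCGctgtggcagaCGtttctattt
HOXD8 (chr2:176129455-176129693, plus strand): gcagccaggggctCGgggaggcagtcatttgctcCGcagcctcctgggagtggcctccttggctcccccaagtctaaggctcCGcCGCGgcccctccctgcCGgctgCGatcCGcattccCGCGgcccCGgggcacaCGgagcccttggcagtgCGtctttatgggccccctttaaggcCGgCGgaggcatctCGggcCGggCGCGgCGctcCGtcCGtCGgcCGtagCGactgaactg

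The stretch before HOXA13 held 40 CpG sites in 235 bases, with 79.1% G and C and an observed over expected CpG ratio of 1.09. The RefSeq start of HOTTIP lies 330 bases from that of HOXA13 on the opposite strand, so that the whole of this stretch lies between the 2 starts. Before HOXA11, whose start is 176 bases from that of HOXA11-AS, there were 11 CpG sites in 250 bases (ratio 0.68). HOXA4 had 22 CpG sites in 208 bases (ratio 0.97), HOXD8 had 25 in 239 (ratio 0.81) and EVX1 had 7 in 148 (ratio 0.65). The median ratio over all RefSeq windows of 300 bases was 0.579. These stretches cover few of the called genes and none of HOXB2 to HOXB9. Whether CpG content has a part in the calls was not tested.

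Counted over the whole RefSeq window of 300 bases (250 before to 50 after the start), HOXA13 held 44 CpG sites, and 4.19% of all 35116 windows held at least as many. Windows were matched for 20 of the 38 HOX genes (9 HOXA, 1 HOXB, 2 HOXC and 8 HOXD), 26 distinct windows in all, of which HOXA3 supplied 7 and HOXC4 and HOXC5 shared 1. They held a median of 22.5 CpG sites, from 0 to 44, against a median of 14 over all windows. HOXA5, HOXB2 to HOXB9, HOXB13, HOXC6, HOXC8 to HOXC13 and HOXD9 had no match. Of 3 motifs searched on both strands, TTTAT, which lies within sites bound by caudal-type factors, was found in 14 of the 26 HOX windows and in 34.9% of all windows. TGATTNAT, a composite site of HOX proteins and a cofactor, was found in 2 HOX windows (HOXA2 and HOXD11) and in 2.8% of all windows. CCAATAAA, a site of posterior HOX proteins, was in 0 HOX windows and in 0.9% of all windows. In the 5 sequences shown, TTTAT occurs before HOXD8 alone and the other 2 motifs do not occur.

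In the HOXC cluster 8 of 9 genes were tested, 1 was called higher and 2 were called lower. HOXC10, which acts in lumbar motor neurons, was at 2.56, 3.75 and 6.4 CPM in HCT116 and at 8.92, 8.76, 9.19 and 7.92 CPM in DNMT1 KO. The 4 DNMT1 KO values were nearly equal and lay above the HCT116 range, with a log2 fold change of 1.10 (SE 0.29, adjusted p = 0.0151 by edgeR). The call was lost in 6 alternative settings, among them batches 1 and 2 with a batch term (1.00, adjusted p = 0.062), and the ratio was 0.48 in batch 1 and 1.26 in batch 2. HOXC13, needed for hair and nails, was at 6.02, 8.68 and 9.73 CPM in HCT116 and at 3.69, 3.45, 2.44 and 1.63 CPM in DNMT1 KO. It fell without overlap, with a log2 fold change of -1.51 (SE 0.31, adjusted p = 0.00324 by edgeR).

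HOXC11, a posterior limb and tail gene, was low in HCT116 and nearly absent from the DNMT1 KO tables. It was at 0.0902, 0.432 and 0.613 CPM in HCT116 and at 0.0505, 0.0355, 0 and 0 CPM in DNMT1 KO. These values rest on 142 and 4 counts. The pooled CPM of HCT116 was 19.8 times that of DNMT1 KO (95% counting interval 7.56 to 73.7), with a log2 fold change of -4.07 (SE 0.83, adjusted p = 0.00312 by edgeR). HOXC11 passed the filter on low counts through HCT116 alone, in 5 of 6 libraries there and 0 of 4 in DNMT1 KO, and a gene that passes in this way has to differ between the groups.

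The middle HOXC genes did not pass the test. HOXC9, expressed in the thoracic trunk, was at 5.99, 9.03 and 11.7 CPM in HCT116 and at 9.04, 12, 8.44 and 8.17 CPM in DNMT1 KO. HOXC6, known from prostate and breast tumours, was at 4.15, 5.08 and 7.67 CPM and at 6.62, 6.33, 5.49 and 6.64 CPM. Their groups overlapped, with log2 fold changes of 0.03 (SE 0.26) and 0.21 (SE 0.26). HOXC8, a thoracic gene, was at 1.02, 1.61 and 2.35 CPM in HCT116 and at 1.06, 0.515, 1.3 and 0.487 CPM in DNMT1 KO, a log2 fold change of -0.91 (SE 0.41, adjusted p = 0.16 by edgeR). HOXC4, active in lymphoid cells, was at 0.589, 1.84 and 4.55 CPM in HCT116 and at 0.96, 1.55, 0.635 and 0.521 CPM in DNMT1 KO.

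HOXC4 depended on the batch. Its HCT116 values were 2.49 to 4.55 CPM in batches 1 and 2 and 0.589 to 1.2 CPM in batch 4. Over all libraries its log2 fold change was -1.25 (SE 0.58, adjusted p = 0.178 by edgeR), and in batches 1 and 2 with a batch term it was -1.73 (adjusted p = 0.0351). HOXC5 reached 1.25 CPM at most, and 59.9% of its exonic bases are shared with other genes. Its log2 fold change was 1.37 (adjusted p = 0.304 by edgeR), and a batch term over all libraries gave 3.50 (adjusted p = 0.0194). HOXC12 had at most 8 counts in a library and was not tested.

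**Figure D5:**
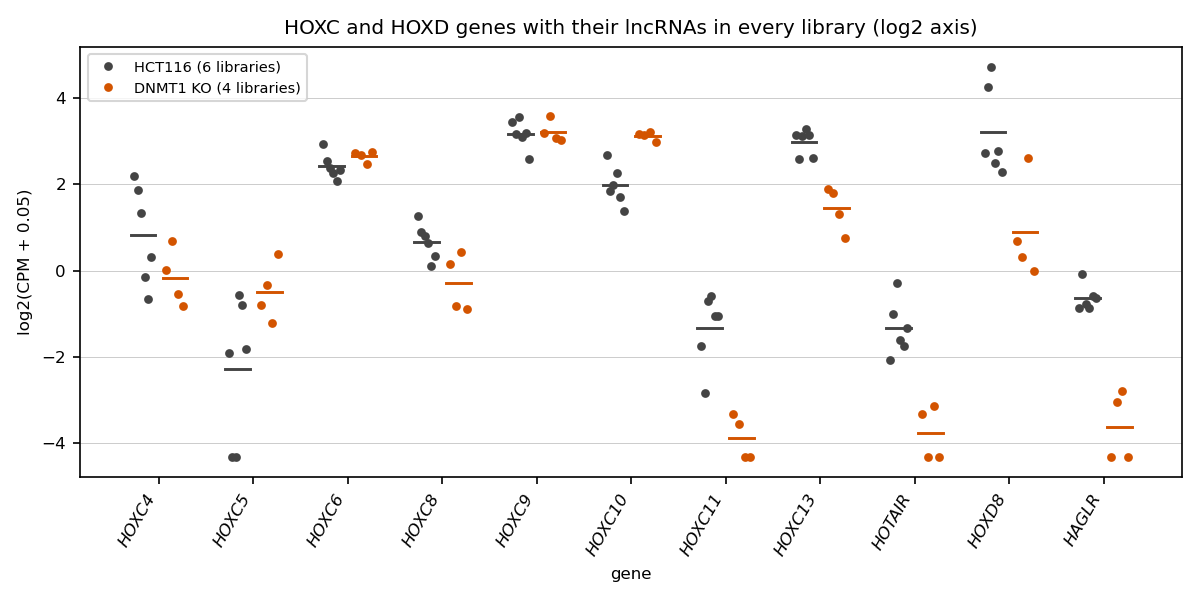
Tested HOXC genes, HOTAIR, HOXD8 and HAGLR in every library, as log2(CPM + 0.05), with 1 point per library and a line at the mean of the log2 values. The groups do not overlap for HOXC10, HOXC11, HOXC13, HOTAIR and HAGLR. DNMT1 KO replicate 3, at 6.06 CPM, brings the HOXD8 groups into overlap, and the lowest points of HOXC5, HOXC11, HOTAIR and HAGLR are libraries with 0 counts.

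The HOXD cluster was almost without counts in both groups. HOXD8, which acts with its neighbours in the trunk, was the exception, at 4.84, 6.69 and 26.6 CPM in HCT116 and at 1.57, 1.19, 6.06 and 0.938 CPM in DNMT1 KO. Its HCT116 values were 19.2 and 26.6 CPM in batch 2 and no higher than 6.82 CPM in the other 4 libraries. DNMT1 KO replicate 3 lay within the HCT116 range. The log2 fold change was -2.23 (SE 0.65, adjusted p = 0.0281 by edgeR), and -3.22 (adjusted p = 0.00382) without that library. The call was lost when HCT116 replicate 2 was left out (-2.03, adjusted p = 0.0527) and when DNMT1 KO replicate 1, 2 or 4 was left out (adjusted p = 0.0892, 0.0935 and 0.0829). The other 8 HOXD genes had at most 13 counts and 0.278 CPM in any library, HOXD1 was listed at 0 in all 10, and a change in them was not detectable at this depth. HOXD3 and HOXD4 share 74.1% and 74.8% of their exonic bases with other genes.

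Detection did not show the falls. At 5 or more counts in every library of a group, 28 HOX genes were present in at least 1 group, 26 in HCT116, 28 in DNMT1 KO and 26 in both. The 2 present by this measure in DNMT1 KO alone were chosen for naming after their values were seen, HOXC5 and HOXD12. HOXD12 lay near the floor, at 5 to 10 counts per DNMT1 KO library. HOXC5 had 21 to 42 counts there and 0 to 45 in HCT116 libraries. HOXC11 did not reach this measure in either group.

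Of 18 long non-coding RNAs of the clusters 13 were tested, 2 were called higher (HOXA11-AS and HOTTIP) and 3 lower, against 7.42% and 6.49% of all genes tested. Their median log2 fold change was -0.47. HAGLR, from the HOXD cluster, was at 0.495, 0.564 and 0.902 CPM in HCT116 and at 0, 0.0711, 0.0952 and 0 CPM in DNMT1 KO, a log2 fold change of -3.59 (SE 0.68, adjusted p = 0.0018 by edgeR) on 203 and 10 counts. HOTAIR, from the HOXC cluster between HOXC11 and HOXC12 and best known for its link to Polycomb, was at 0.186, 0.314 and 0.775 CPM in HCT116 and at 0.0505, 0, 0.0635 and 0 CPM in DNMT1 KO. This was a log2 fold change of -3.52 (SE 0.78, adjusted p = 0.0056 by edgeR) on 121 and 6 counts. HOXB-AS3 was at 1.33, 2.77 and 12.6 CPM in HCT116 and at 0.505, 1.07, 0.667 and 0.521 CPM in DNMT1 KO. Its log2 fold change of -2.62 (SE 0.65, adjusted p = 0.0111 by edgeR) became -1.17 with batch as a term in batches 1 and 2 (adjusted p = 0.124). HAGLR and HOTAIR were over the low-count filter in 6 and 5 of 6 HCT116 libraries and in 0 of 4 DNMT1 KO libraries, so that, like HOXC11, they were tested through HCT116 alone and had to differ. HOTAIR and HOXB-AS3 were named after their values were seen. The 8 microRNA hairpins of the clusters had at most 15 counts and were not tested.

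The genes that flank the clusters served as the local background. Of 20 flanking genes 17 were tested, 2 were called higher and 1 lower, against 7.42% and 6.49% of all genes tested. Their median log2 fold change was -0.26. EVX1 and SKAP1, which are among these calls, passed the low-count filter only through the group in which they were high. Their calls therefore carry no weight in this count. SKAP1, a lymphocyte adaptor gene next to the anterior end of the HOXB cluster, was at 3.77, 9.96 and 11.9 CPM in HCT116 and at 0.0505, 0, 0.0317 and 0.0348 CPM in DNMT1 KO. It had 2612 counts in HCT116 and 5 in DNMT1 KO, and the log2 fold change was -8.20 (SE 0.64, adjusted p = 5.66e-07 by edgeR). SKAP1 too was over the filter in HCT116 alone, in 6 of 6 libraries against 0 of 4, which leaves the counts and not the p-value as the measure of the difference. CBX5, the gene of the heterochromatin protein HP1 alpha near the HOXC cluster, was at 209, 320 and 419 CPM and at 678, 590, 710 and 722 CPM. Its log2 fold change was 1.09 (SE 0.24, adjusted p = 0.00483 by edgeR), and 0.94 with batch as a term in batches 1 and 2. SKAP2, next to the anterior end of the HOXA cluster, was lower without overlap (54.1 to 80.4 against 19.3 to 39.3 CPM), at a log2 fold change of -0.97 (SE 0.25) that missed the fold threshold.

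The genes known to regulate HOX clusters were counted on fixed lists, beside shares of 7.42% called higher and 6.49% called lower over all genes tested. Of 29 Polycomb genes 26 were tested, 0 were called higher (0 at an unadjusted p under 0.05, 0 by DESeq2) and 1 was called lower, the methyltransferase gene EZH1, at -1.23 (SE 0.34, adjusted p = 0.0228 by edgeR). Its groups overlapped, at 15 to 38.6 and 6.46 to 16.1 CPM, and its call was lost in 7 settings. All 20 trithorax and MLL genes were tested and 1 was called higher, MLLT3, at 1.01 (SE 0.31, adjusted p = 0.0389 by edgeR), a call lost in 8 settings. CTCF and the cohesin genes, 9 of 9 tested, had 0 calls by edgeR and 0 by DESeq2, with 3 higher and 0 lower at an unadjusted p under 0.05.

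Genes of retinoic acid handling were called in both directions. Of 17 on the list 11 were tested, 2 were called higher and 2 lower, against 7.42% and 6.49% of all genes tested. So few calls do not describe the list as a whole. ALDH1A3, which makes retinoic acid, was at 106, 155 and 309 CPM in HCT116 and at 24.5, 13.5, 28.2 and 29.2 CPM in DNMT1 KO, a log2 fold change of -2.85 (SE 0.35, adjusted p = 4.47e-05 by edgeR). CYP26B1, which degrades it, was at 18.3, 19.2 and 27.3 CPM and at 61.4, 51.5, 51.5 and 66.6 CPM, a log2 fold change of 1.47 (SE 0.20, adjusted p = 0.000109 by edgeR). RARG, a receptor for it, was at 69.9, 122 and 167 CPM and at 48.8, 36, 36.1 and 49.4 CPM, a log2 fold change of -1.46 (SE 0.26, adjusted p = 0.00117 by edgeR). The remaining called gene, CYP26A1, rose by 2.53 on the log2 scale (SE 0.63, adjusted p = 0.0123 by edgeR) from at most 0.403 CPM. It was over the filter in 1 of 6 HCT116 and 4 of 4 DNMT1 KO libraries, so that it was tested through DNMT1 KO. Its call therefore carries no weight in the count for this list, and CYP26A1 was named after its values were seen. In these 4 genes the groups did not overlap. Of the 6 ParaHox genes, the sister cluster of HOX, 2 were tested and 0 were called (0 at an unadjusted p under 0.05, 0 by DESeq2), and CDX2, the caudal-type factor of the intestine, was at 18 to 41.4 CPM in HCT116 and 33.9 to 40 CPM in DNMT1 KO.

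Markers of cell identity moved with the groups and are given beside the HOX values. Over all genes tested, 7.42% were called higher and 6.49% lower. Of 9 colon epithelial markers 5 were called lower (EPCAM, CDH1, KRT8, KRT18 and CLDN7) and 1 higher (VIL1), and their summed level was 2685 to 6430 CPM in HCT116 and 700.0 to 1483 CPM in DNMT1 KO. CDX2 was present in both groups, and CDH17 and GPA33 were under 0.73 CPM in every library, HCT116 included. Of 7 fibroblast markers 4 were tested and 3 were called higher (COL3A1, LUM and PDGFRB). COL3A1 and LUM, like VIL1, were over the low-count filter in 0 of 6 HCT116 and 4 of 4 DNMT1 KO libraries and so had to differ to be tested. COL1A1, the most abundant fibroblast marker, was at 6.16 to 19.5 CPM in HCT116 and 2.9 to 14.1 CPM in DNMT1 KO, a log2 fold change of -0.90 (SE 0.42, adjusted p = 0.183 by edgeR). DCN, COL1A2 and PDGFRA were at or under 0.143 CPM, and the summed levels were 6.47 to 19.8 and 16.7 to 21.5 CPM. Of 5 leukocyte markers 1 was tested and 0 were called (1 at an unadjusted p under 0.05, 0 by DESeq2), with summed levels of 0.0902 to 0.744 and 0.603 to 1.36 CPM. The part of these markers in the HOX results was not tested.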

How the data were processed

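Polyadenylated RNA of 6 HCT116 and 4 DNMT1 KO libraries was examined. The authors trimmed reads with TrimGalore 0.4.1, aligned them with the unspliced aligner bowtie2 to hg38 and deposited raw counts per gene from featureCounts, with no strand option named. The settings named also hold no option to count a read that overlaps several genes. Reads from bases shared by overlapping or antisense genes may therefore be missing from the counts. A further 3 tables had no sample in the series' list and were not used here.

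Genes were tested with edgeR 4.0.16 in R 4.3.3 (TMM, filterByExpr defaults, glmQLFit and glmQLFTest, two-sided, group as the sole term) and adjusted by Benjamini-Hochberg over 19279 genes. The standard error was the log2 fold change divided by the square root of F. CPM used TMM-scaled totals. Every HOX gene was accounted for: library values were given for called genes and those of at least 1 CPM on average in either group, and up to 3 called genes with the smallest adjusted p were named per related list. Of the related lists, 1 is not reported here. The genes and lists were chosen with earlier results of these data known. Alternatives were other size factors (RLE, totals alone), other filters, DESeq2 1.42.0, batch terms, batch 2 alone, a replicate block, halved counts and leaving out each library.

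Among genes with 1 to 10 counts, even counts made up 64.4 to 70.0% in 9 libraries and 39.9% in DNMT1 KO replicate 4, so counts may come in mate pairs. The counting intervals took every count as independent and are too narrow where both mates of a pair were counted. They leave out the spread between libraries.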

Additional observations from a re-analysis of the deposited data

Results flagged for a closer look

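At the 95% level of Dixon's test, a single library stood apart from the others of its group in 7 of 88 groups of values examined, where chance alone gives about 4.4. HOXA4 in HCT116 replicate 2 was at 0.451 CPM against 0.767 to 0.945 CPM in the other HCT116 libraries. HOXB3 and HOXB-AS3 were both high in HCT116 replicate 9, at 16.6 CPM against 9.45 to 10.2 CPM and at 12.6 CPM against 1.33 to 4.71 CPM. HOXB5 in HCT116 replicate 1 was at 27.1 CPM against 8.23 to 12.1 CPM, and HAGLR in HCT116 replicate 2 was at 0.902 CPM against 0.495 to 0.62 CPM. Among DNMT1 KO libraries, HOXB2 in replicate 2 was at 0.107 CPM against 0.278 to 0.302 CPM, on 6 counts, and HOXD8 in replicate 3 was at 6.06 CPM against 0.938 to 1.57 CPM. The HOXD8 value is the one that brought the groups into overlap.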

How the results depend on the processing

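No called HOX gene changed sign under any of the 21 alternative settings, and HOXA13, HOXB3, HOXB4, HOXB8 and HOXB9 were called in all 21. HOXC11, which passed the filter through HCT116 alone, could be fitted in 16 and its calls there carry no weight. The count called higher, 3, fell to 1 (HOXA13) with batch as a term in batches 1 and 2, and the count called lower, 11, fell to 4 in batch 2 alone. Leaving out 1 library gave 2 to 3 called higher and 10 to 11 called lower. The lost calls were HOXA4 without HCT116 replicate 2 or DNMT1 KO replicate 1, 2 or 4, HOXC10 without HCT116 replicate 9, and HOXD8 as given above. For replicate numbers 1 to 3, deviations in libraries of the same number correlated at 0.55, -0.27 and 0.37. Libraries of unlike number were not compared, so whether the numbers pair the libraries was not settled. The replicate block gave 1 called higher and 9 lower, as did replicates 1 to 3 without it, a fit added after seeing the data. Among genes not called, the sign turned for HOXA2 (0.10 in batch 2 alone, 0.0085 with the replicate block, 0.021 without it), HOXA5 (0.13 in batch 2 alone) and HOXC6 (-0.014 without the block). HOXA6 turned with totals alone (0.10), batch as a term over all libraries (0.43) or over batches 1 and 2 (0.43), batch 2 alone (0.25), the block (0.43) and no block (0.38). HOXA9 turned to 0.016, 0.017, 0.039, 0.014 and 0.017, and HOXC9 to -0.10, -0.10, -0.011, -0.11 and -0.10, in the last 5 of these in turn. Leaving out 1 library spanned -0.24 to 0.027 for HOXA6 and -0.10 to 0.15 for HOXC9. HOXB13 was called with totals alone, HOXC4 with 4 batch or replicate settings and HOXC5 with 2. The causes were not tested. At 1 or 10 counts in place of 5, detection gave 33 and 27 HOX genes in place of 28. HOXC12, HOXB1 and 8 HOXD genes had too few counts to test, and HOXC11 had 4 counts in all in DNMT1 KO. Whether depth, silence or reads lost to shared bases lay behind this was not tested.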
